A study of Mus musculus with 14 samples.

Results

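The clustered protocadherins were followed in mouse tail fibroblasts and in their reprogrammed derivatives, through the RNA of the genes and the DNA methylation of the locus. The genes were chosen by symbol, as every gene named Pcdha, Pcdhb or Pcdhg with a number, an a or b series or a c number, which gave 59 of the 22026 genes listed. They comprised 13 alpha genes, 22 beta genes, 12 genes of the gamma A type, 7 of the gamma B type and 5 C-type genes of the alpha and gamma clusters. The locus was taken as the window from 37.08 to 38.01 Mb of chromosome 18 in the mouse build mm9. Within it 939 to 1160 measured cytosine positions fell in each methylation library, of 1659832 to 2154007 per library in all, and 740 were covered in all 10.

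Cells labelled AID-null were set against cells labelled wildtype. In each genotype there were 3 clones that had been picked at 2 weeks and were measured after 3 weeks of reprogramming, a 3-week bulk culture, and untreated tail fibroblasts. Reprogramming used ectopic expression of Oct4, Sox2, Klf4 and cMyc, and the fibroblasts had received none of these. Reduced representation bisulfite sequencing (RRBS), which reads CpG cytosines near restriction sites, covered all 10 of these samples. RNA was sequenced from 1 bulk culture and 1 fibroblast sample per genotype, and the clones had no RNA library. The labels name no age or strain, do not describe the AID allele, and do not say whether clones of a genotype came from separate animals or cultures. Their p-values thus speak only of the spread among these 6 clones, which could be technical.

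Clustered protocadherins are cell adhesion proteins best known from neurons, where each cell uses its own small set of them as a surface identity for self-recognition. They lie in a tandem of alpha, beta and gamma arrays. In the alpha and gamma arrays each variable exon has its own CpG-rich promoter and is spliced to constant exons shared by the array, whereas each beta gene is a self-contained exon. Which promoters are used depends on the insulator protein CTCF and cohesin, and silent promoters carry DNA methylation, much of it placed by Dnmt3b. The C-type genes stand at the ends of the alpha and gamma arrays and are less subject to that choice of promoters. Because gamma and alpha transcripts share their constant exons and the beta genes are close copies of each other, the deposited levels depend on how shared reads were divided, which the labels do not describe, and are uncertain to that extent.

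Coverage summed over cytosines was 222945430 to 296572452 in the 10 RRBS libraries, and 106730 to 169745 of it fell in the window. Median coverage in the window was 86 to 128 per position. A read is counted at each position it covers. RNA levels are in FPKM (fragments scaled to transcript length and to library size), and their read depth is unknown. Every genotype below is the genotype as labelled. The genotypes differed in sex-linked sequence: Eif2s3y, a Y-linked gene, was listed at 274 and 0 FPKM in the AID-null and wildtype 3-week cultures and at 184 and 0 FPKM in the fibroblasts. In the RRBS files 506 to 648 positions lay on Y in AID-null libraries and 27 to 48 in wildtype libraries, so genotype and sex cannot be told apart. Fibroblast markers (9 of 9, among them the collagens Col1a1 and Col1a2) were present in both fibroblast libraries, and all 8 pluripotency markers were at least 2-fold higher at 3 weeks in both genotypes.

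In fibroblasts the clustered protocadherins were mainly represented by 1 C-type gene together with the gamma and beta genes. Pcdhgc3, a C-type gene of the gamma array, stood at 292 FPKM in AID-null and 296 FPKM in wildtype fibroblasts, the highest level of any member in both. It made up 28.2% and 26.1% of the summed FPKM of the 59 genes. Among the variable genes the highest were Pcdhb17 at 66.55 and 70.6 FPKM, Pcdhga4 at 45.5 and 56.8 FPKM and Pcdhga10 at 37.4 and 51.7 FPKM in AID-null and wildtype fibroblasts. Nearly the whole gamma array was listed: the gamma A genes ranged between 3.97 and 45.5 FPKM in AID-null and between 6.31 and 56.8 FPKM in wildtype fibroblasts. The alpha genes were far lower, summing to 21.8 and 16.7 FPKM over 13 genes, against 306 and 340 FPKM over 22 beta genes. Of the 59 genes 10 stayed under 1 FPKM in all 4 libraries, with values between 0 and 0.76 FPKM, and 2 of these, Pcdhb1 and Pcdhb6, were listed at 0 throughout.

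**Figure D1:**
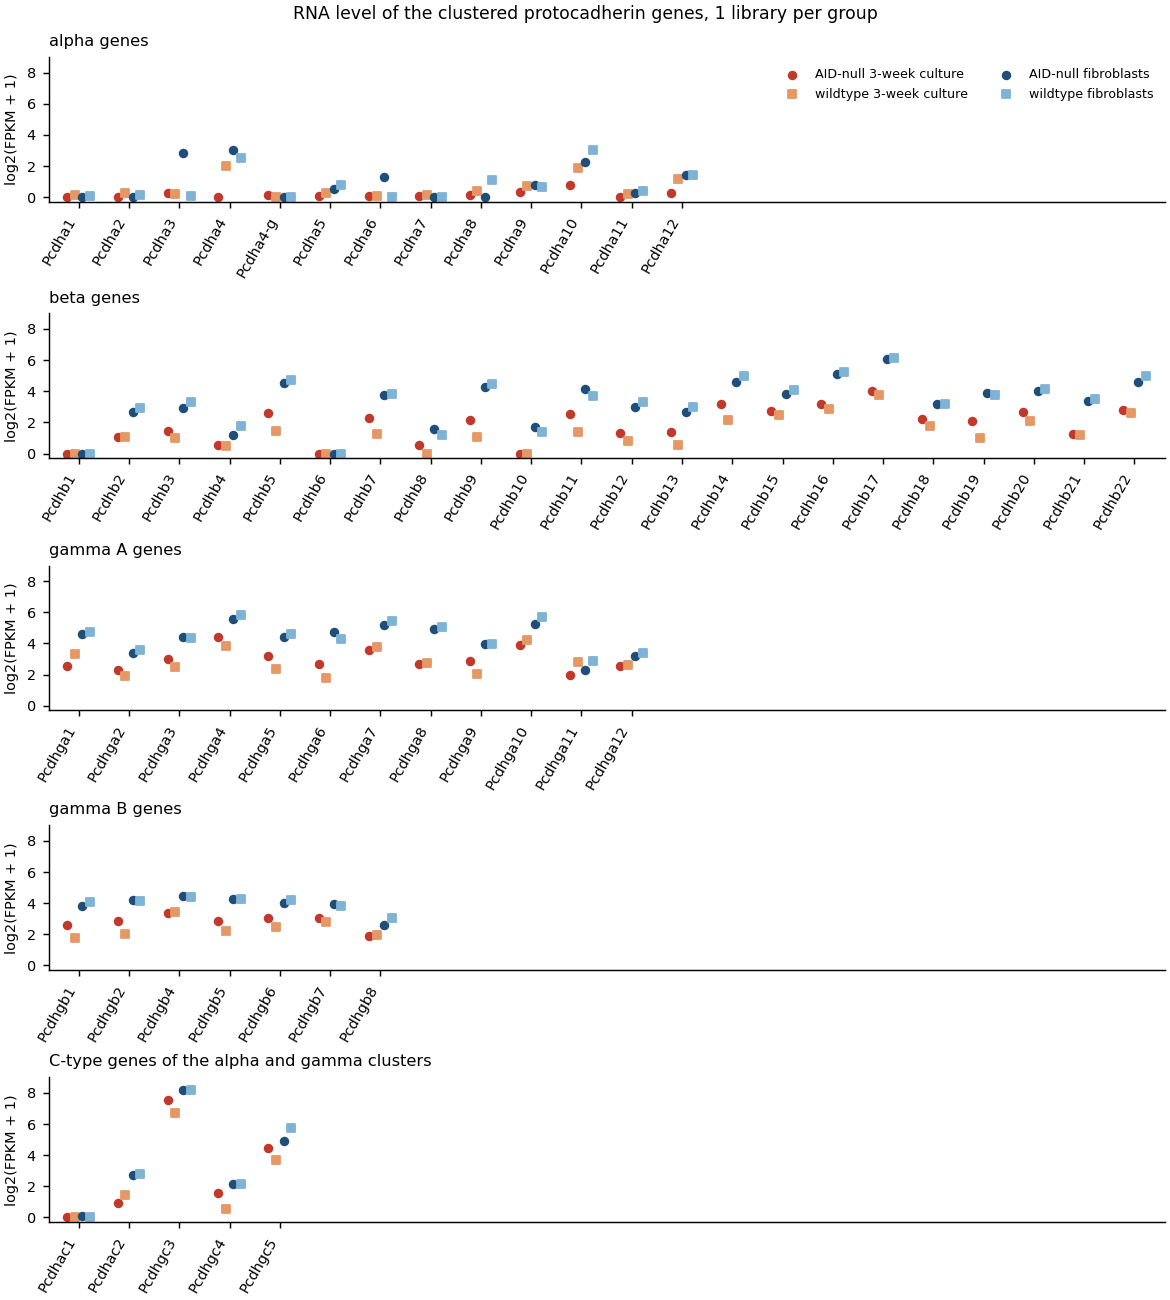
RNA level of each clustered protocadherin gene on the log2(FPKM + 1) scale, by family, with 1 library per group (AID-null 3-week culture, wildtype 3-week culture, AID-null fibroblasts, wildtype fibroblasts) and no error bars. The fibroblast points lie above the 3-week points for most beta and gamma genes, and Pcdhgc3 is the highest gene in every library.

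At 3 weeks of reprogramming the clustered protocadherins were lower than in fibroblasts in both genotypes. The differences are those of log2(FPKM + 1), a scale that understates changes of low genes, and a gene was counted at an absolute difference of at least 1 (2-fold) among genes reaching 1 FPKM in either of the libraries compared. Each group had a single RNA library, so these differences have no replicate check and no test. In AID-null cells 37 of the 59 genes were at least 2-fold lower, beside 17.6% of the 15076 genes compared in that contrast, and 0 were higher, beside 21.3%. In wildtype cells 40 of the 59 were lower, beside 17.7% of 15196 genes compared, and 0 were higher, beside 27%. Of the genes under 1 FPKM in both libraries, 11 in AID-null and 12 in wildtype cells, none could be compared. Members reaching 1 FPKM in both libraries numbered 39 in AID-null and 38 in wildtype cells. The other members compared passed through the fibroblasts alone and had to lie below them. The median difference over all 59 genes, with no filter, was −1.22 in AID-null and −1.61 in wildtype cells, while the median over all 22026 listed genes was 0 in both. After upper-quartile and median-of-ratios scaling 32 and 34 members were lower in AID-null cells, where the median of all genes compared was −0.05 as deposited and 0.14 and 0.08 after these scalings. In these bulk samples fewer cells of a type and less RNA per cell cannot be told apart.

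The beta genes, which lack the constant exons of the other arrays, were lower than in fibroblasts in both genotypes. Their summed level was 80.1 FPKM in the AID-null 3-week culture and 49.1 FPKM in the wildtype one, against 306 FPKM in AID-null and 340 FPKM in wildtype fibroblasts, which is 26.2% and 14.4% of the fibroblast level. Pcdhb17 stood at 15.2 and 12.5 FPKM in the AID-null and wildtype cultures, against 66.55 and 70.6 FPKM in the fibroblasts. Pcdhb9 stood at 3.54 and 1.08 FPKM in the cultures, against 17.99 and 21.2 FPKM in the fibroblasts, with a difference of −3.42 in wildtype cells, the lowest of any member in that genotype. Pcdhb5 was close to it in wildtype cells, at 1.71 FPKM in the culture against 26.0 FPKM in the fibroblasts. Of the 22 beta genes 17 were at least 2-fold lower in AID-null and 20 in wildtype cells, beside 17.6% and 17.7% of all genes compared. None lay above the fibroblast level in either. In the cultures 17 beta genes reached 1 FPKM in AID-null and 13 in wildtype cells, against 20 in each fibroblast library. The others compared passed through the fibroblasts and had to lie below them. Pcdhb10 was listed at 0 in both 3-week cultures, against 2.27 and 1.61 FPKM in AID-null and wildtype fibroblasts.

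The gamma genes were lower as well, with more variation between genes. The gamma A sum was 94.0 and 85.0 FPKM in the AID-null and wildtype cultures, against 275 and 310 FPKM in the fibroblasts, and the gamma B sum 44.1 and 32.4 FPKM against 104 and 107 FPKM. Pcdhga8 stood at 5.31 and 5.56 FPKM in the cultures against 29.9 and 32.1 FPKM in the fibroblasts, differences of −2.29 and −2.34. At the other end was Pcdhga11, at 2.88 and 5.97 FPKM in the cultures against 3.97 and 6.31 FPKM in the fibroblasts, differences of −0.36 and −0.07, and after upper-quartile scaling 1 gamma A gene, Pcdhga11, lay above the fibroblasts in wildtype cells. The members of a single array therefore differed widely in how far they stood below the fibroblasts. Pcdhga4, the highest gamma A gene in both fibroblast libraries, stood at 20.3 and 13.2 FPKM in the AID-null and wildtype cultures.

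Of the C-type genes Pcdhgc3 remained the highest member. It stood at 184 and 102 FPKM in the AID-null and wildtype 3-week cultures, against 292 and 296 FPKM in the fibroblasts, and its share of the summed protocadherin FPKM was 43.0% and 35.0% in the cultures. Pcdhgc5 stood at 20.8 and 11.95 FPKM in the cultures against 28.8 and 52.8 FPKM in the fibroblasts, so that its difference was −0.45 in AID-null and −2.05 in wildtype cells. Pcdhgc4 stood at 2.02 and 0.45 FPKM against 3.35 and 3.45 FPKM. These 3 gamma C-type genes were at least 2-fold lower in wildtype cells and lay within 2-fold in AID-null cells. The alpha C-type gene Pcdhac2 was at least 2-fold lower in both genotypes, at 0.92 and 1.70 FPKM in the cultures against 5.67 and 5.83 FPKM in the fibroblasts, and Pcdhac1 did not exceed 0.09 FPKM in any library.

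The alpha genes stood at different shares of the fibroblast level in the genotypes, a difference that was not tested. Their sum was 1.63 FPKM in AID-null and 8.87 FPKM in wildtype cells at 3 weeks, against 21.8 and 16.7 FPKM in the fibroblasts, that is 7.49% and 53.2% of the fibroblast level. Pcdha4 was listed at 0 in the AID-null and at 3.09 FPKM in the wildtype culture, against 7.32 and 4.81 FPKM in the fibroblasts. Pcdha10 stood at 0.70 and 2.59 FPKM in the cultures against 3.70 and 7.20 FPKM in the fibroblasts. Of the 13 alpha genes 5 were at least 2-fold lower in AID-null cells and 1, Pcdha10, in wildtype cells, and 3 and 6 lay above the fibroblast level. None of the 13 reached 1 FPKM in the AID-null culture, so any that was compared passed through the fibroblasts and had to lie below them. Of the genes counted as lower, 32 were shared between the genotypes, which is 86.5% of the 37 in AID-null and 80% of the 40 in wildtype cells.

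**Figure D2:**
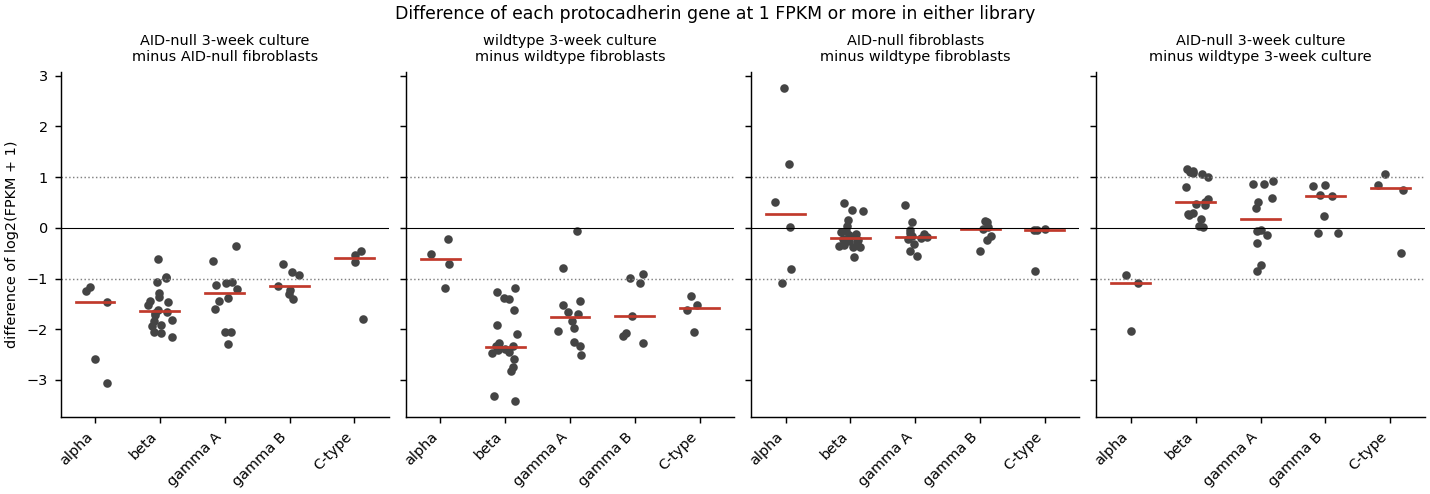
Difference of log2(FPKM + 1) for each clustered protocadherin gene at 1 FPKM or more in either library, by family, in the 4 comparisons of single libraries. Each point is a gene, red bars are family medians and dotted lines mark a 2-fold difference. Genes plotted because 1 library alone reached 1 FPKM have their sign fixed by that, as do the 3 alpha points in the comparison of the 3-week cultures. The lowest points lie at −3.06 in AID-null and −3.42 in wildtype cells, in the comparisons of 3-week cultures with fibroblasts.

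Between the fibroblasts of the genotypes the protocadherin levels were close. Of the 49 genes compared 46 lay within 2-fold, 2 were higher in AID-null fibroblasts, beside 4.26% of 13788 genes compared, and 1 was lower, beside 1.34%. These counts were near the shares of all genes. The 3 genes were alpha genes, and each reached 1 FPKM in only 1 of the fibroblast libraries, which fixed its sign. Pcdha3 stood at 6.18 FPKM in AID-null and 0.06 FPKM in wildtype fibroblasts, Pcdha6 at 1.45 and 0.02 FPKM, and Pcdha8 at 0.02 and 1.17 FPKM. Each was therefore listed mainly in 1 of the fibroblast libraries, whereas Pcdha4, Pcdha10 and Pcdha12 were listed in both. The beta genes had a median difference of −0.19 and the gamma A genes of −0.17, beside −0.03 over all genes compared. Macrophage markers differed in the same comparison, 9 of 9 being at least 2-fold higher, with a sum of 1193 FPKM in AID-null and 359 FPKM in wildtype fibroblasts. Their part in the protocadherin values was not tested.

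Between the 3-week cultures beta genes were the main ones at higher levels in AID-null cells. Of the 43 genes compared 7 were at least 2-fold higher in the AID-null culture, beside 9.76% of 15204 genes compared, and 2 were lower, beside 11.5%. The 7 were the beta genes Pcdhb5, Pcdhb7, Pcdhb9, Pcdhb11, Pcdhb14 and Pcdhb19 and the C-type gene Pcdhgc4, and the 2 were Pcdha4 and Pcdha10. Of the 7, Pcdhb19 and Pcdhgc4 reached 1 FPKM only in the AID-null culture, so they could only lie above 0. Pcdhb14 stood at 8.08 FPKM in the AID-null and 3.36 FPKM in the wildtype culture, Pcdhb5 at 5.06 and 1.71 FPKM, and Pcdhb11 at 4.71 and 1.66 FPKM. The 13 beta genes that reached 1 FPKM in both cultures all lay above 0, under the deposited scale and under both rescalings tried. Of the 13 alpha genes none reached 1 FPKM in AID-null cells and 3 did in wildtype cells at 3 weeks, so those 3, Pcdha4, Pcdha10 and Pcdha12, could only lie below 0, and 2 of the 13 lay above. With the libraries rescaled to a common upper quartile 12 members were higher and 2 lower, and with median-of-ratios scaling 12 and 1. The median of all genes in this comparison was −0.18 as deposited, −0.02 after upper-quartile and 0.02 after median-of-ratios scaling. Over all 59 members, with no filter, the median was 0.18 as deposited, beside 0 for all listed genes.

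The fibroblast markers also differed between the 3-week cultures. Their sum was 10344 FPKM in the AID-null and 2468 FPKM in the wildtype 3-week culture, which is 12.5% and 3.47% of their sum in the fibroblasts. Of the 9 markers 8 were at least 2-fold higher in the AID-null culture, and none was at 0. Over all 59 protocadherins the sum was 427 FPKM in the AID-null and 291 FPKM in the wildtype culture, which is 41.2% and 25.7% of the fibroblast sums, or 32.7% and 22.6% without Pcdhgc3. The protocadherin sum thus stayed at a larger share of its fibroblast level than the marker sum did, in both genotypes. The marker sum in fibroblasts was mostly collagen, with Col1a1 at 30836.5 and 26382.8 FPKM in AID-null and wildtype fibroblasts. Single markers did not all follow it, and some kept a larger share than the protocadherin sum. At least 2-fold below the fibroblasts were 6 of the 9 in AID-null and 9 in wildtype cells. Macrophage markers summed to 351 FPKM in the AID-null and 117 FPKM in the wildtype culture, where 6 of the 9 were at 0. Of 10 neuronal markers found, 4 were at 0 in AID-null and 1 in wildtype cells at 3 weeks, and 2 and 6 were at least 2-fold higher than in fibroblasts. Their sums were 534 and 625 FPKM, against 62.9 and 47.2 FPKM in the fibroblasts, and most of this was Stmn2, named after its values were seen, at 477 and 515 FPKM, against 11.6 and 7.12 FPKM. The part of these cell types in the protocadherin values was not tested.

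Genes that act on the protocadherin locus were also measured. Of 23 genes found for CTCF, cohesin, DNA methyltransferases and silencing factors, 7 were at least 2-fold higher at 3 weeks in AID-null and 13 in wildtype cells, beside 21.3% and 27% of all genes compared, and 0 were lower. Dnmt3b, the de novo methyltransferase that places methylation on protocadherin promoters in the embryo, stood at 193 and 389 FPKM in the AID-null and wildtype cultures, against 4.78 and 3.20 FPKM in the fibroblasts. Its cofactor Dnmt3l stood at 692 and 785 FPKM against 7.28 and 7.64 FPKM, and Uhrf1, which recruits the maintenance methyltransferase, at 189 and 330 FPKM against 28.1 and 16.8 FPKM. These 3 genes were more than 2-fold higher at 3 weeks in both genotypes. Ctcf itself stood at 111 and 214 FPKM in the cultures against 104 and 103 FPKM in the fibroblasts, so that it differed by 0.09 in AID-null and 1.04 in wildtype cells. Smchd1, which represses the clusters in mouse, was similar throughout, at 51.3 and 58.5 FPKM against 67.0 and 65.0 FPKM.

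Other members of the wider families did not follow a single pattern. Of 12 non-clustered protocadherins 7 reached 1 FPKM and were compared in AID-null and 8 in wildtype cells. Of those compared, 3 were at least 2-fold lower at 3 weeks in each genotype. The share among all genes compared was 17.6% in AID-null and 17.7% in wildtype cells. In AID-null cells 0 were higher, and in wildtype cells 1. Pcdh20 stood at 7.59 and 1.16 FPKM in the AID-null and wildtype cultures against 37.3 and 19.7 FPKM in the fibroblasts, and Pcdh18 at 26.8 and 6.25 FPKM against 48.3 and 52.2 FPKM. Of 18 signalling and cleavage partners 4 were lower in each genotype, a share near that of all genes, and 0 were higher in AID-null and 2 in wildtype cells. The lower ones included Marcks, a protein kinase C substrate of the gamma protocadherin pathway, at 129 and 89.9 FPKM against 1175 and 1156 FPKM. Classical cadherins moved both ways: the epithelial Cdh1 stood at 289 and 296 FPKM in the cultures against 4.67 and 0.41 FPKM in the fibroblasts, and the mesenchymal Cdh2 at 20.1 and 32.9 FPKM against 170 and 180 FPKM. Among the genes lying between the arrays in the order of the assembly GRCm38.p6, Taf7, a subunit of the transcription factor TFIID, went the other way from the protocadherins. It stood at 117 and 207 FPKM in the AID-null and wildtype cultures, against 11.8 and 11.1 FPKM in the fibroblasts.

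DNA methylation of the locus was lower in every reprogrammed sample than in fibroblasts. Over the 740 positions covered in all libraries the mean level was 21.59%, 17.999% and 26.9% in AID-null clones 1 to 3, 23.3%, 24.8% and 25.6% in wildtype clones 1 to 3, 30.4% and 25.7% in the AID-null and wildtype 3-week cultures, and 45.5% and 46.2% in AID-null and wildtype fibroblasts. All 6 clones lay below both fibroblast libraries, and both bulk cultures lay between the clones' mean and the fibroblasts. The clones averaged 23.4% ± 3.22 (SD, n = 6) and the fibroblasts 45.9% (n = 2), a difference of −22.5 points (exact two-sided permutation test, p = 0.0357, the smallest this test can give). Without the AID-null or the wildtype fibroblast library it was −22.9 or −22.1 points, and the smallest possible exact p was then 0.143. Over all autosomes, 1303917 positions, the same difference was −5.76 points. In stretches of equal length before and after the window it was −4.98 points over 1042 positions and −9.55 points over 1236 positions. The permutation tests of clones against fibroblasts, here and below, pooled the genotypes. They took bulk fibroblast libraries to vary like clones, which the data cannot show.

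The window stood above the autosomal level in fibroblasts and below it in clones. Taken as the window minus all autosomal positions of the same library, the level was −5.10, −6.32 and −3.77 points in AID-null clones 1 to 3 and −1.78, −1.21 and −0.83 points in wildtype clones 1 to 3. It was 2.85 and 2.15 points in the AID-null and wildtype 3-week cultures and 13.3 and 13.8 points in the fibroblasts. The relative level was −3.17 ± 2.25 points in clones (SD, n = 6) and 13.5 points in fibroblasts, a difference of −16.7 points (exact permutation test, p = 0.0357, again the smallest possible). In this locus the clones' methylation thus differed from the fibroblasts by more than the autosomal average did.

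**Figure D3:**
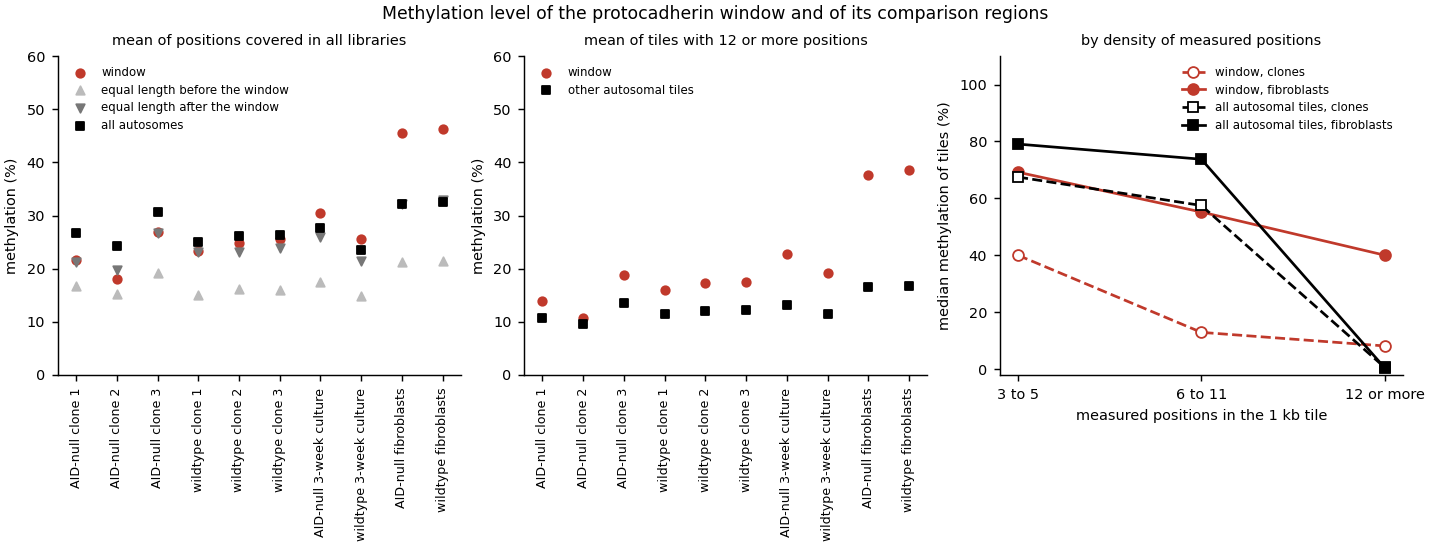
Left, mean methylation in percent over the positions covered in all 10 libraries, for the protocadherin window, the equal lengths before and after it and all autosomes; each point is a library. Middle, the mean of 1 kb tiles with 12 or more measured positions; right, median methylation of tiles by density of positions, for clones and fibroblasts. The window stands at 45.5% and 46.2% in fibroblasts and between 17.999% and 26.9% in the clones, and the autosomal mean differs by −5.76 points between clones and fibroblasts.

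The difference extended to the CpG-dense part of the locus. Reads were summed in 1 kb tiles with at least 3 positions, 76 of which were covered in all 10 libraries, and 18 of these held 12 or more positions. These dense tiles averaged 13.8%, 10.8% and 18.8% in AID-null clones 1 to 3, 16.0%, 17.4% and 17.4% in wildtype clones 1 to 3, 22.7% and 19.1% in the AID-null and wildtype 3-week cultures, and 37.6% and 38.5% in the fibroblasts. The 22762 other autosomal tiles of that density averaged 9.55% to 13.6% in clones and 16.6% and 16.7% in fibroblasts. The dense protocadherin tiles were thus above other dense tiles in every library, by 1.21 to 5.34 points in the clones and by 21.1 and 21.8 points in the fibroblasts (exact permutation test of that gap, difference −17.4 points, p = 0.0357, the smallest possible). Their median was 8.19% in clones and 40.1% in fibroblasts, beside 0.68% and 0.54% for all autosomal tiles of that density. A tile at that autosomal median could hardly fall, so the change in the gap largely restates the window's own difference. Dense tiles of similar fibroblast level were not compared.

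By tile means, much of the locus was at intermediate levels in fibroblasts. Of the 76 tiles 50 (65.8%) had a fibroblast mean of at least 10% and under 80%, against 37.3% of 108260 autosomal tiles. In the clones 26 tiles (34.2%) averaged under 10%, against 8 (10.5%) in fibroblasts, whereas over all autosomal tiles the shares were 24.2% and 23.9%. At single positions the share under 10% ranged between 46.2% and 63.4% in the clones and stood at 26.5% and 27.3% in AID-null and wildtype fibroblasts. At the upper end 5.00% to 11.6% of positions in the clones were at 80% or more, against 24.6% and 27.2% in the fibroblasts. Between these limits lay 30.7% to 47.7% of positions in the clones, and 48.9% and 45.5% in AID-null and wildtype fibroblasts. Percentages per position cannot show whether an intermediate level comes from a mixture of cells or of alleles.

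Tile by tile, 47 of 80 tiles tested were lower in the clones than in the fibroblasts, beside 16.8% of 112004 autosomal tiles, and 1 was higher, beside 5.66%. The test was a quasi-binomial model with genotype as a term and its dispersion moderated across tiles with limma, and calls needed both a difference of 25 percentage points or more and an adjusted p (Benjamini-Hochberg) below 0.05. The model also took fibroblast libraries to vary like clones, which the data cannot show. Since a tile can fall by 25 points only from a level of 25% or more, the count was also taken among such tiles: 47 of 66 (71.2%) were lower in the window and 23.5% over all autosomes. In 52 of the 76 tiles every clone lay below both fibroblast libraries, beside 36.2% of all autosomal tiles, and in 4 every clone lay above, beside 11.8%.

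The tiles with the largest differences were lower in every clone than in both fibroblast libraries. Being chosen by that difference, they were bound to show little overlap. At chr18:37703000-37703999, with 13 positions, methylation was 30.1%, 15.6% and 33.5% in AID-null clones 1 to 3 and 20.6%, 24.3% and 20.9% in wildtype clones 1 to 3, against 79.1% and 88.6% in AID-null and wildtype fibroblasts (−59.7 points, adjusted p = 1.56e-08). The groups did not overlap, and the bulk cultures lay between them at 48.5% and 36.4%. At chr18:37107000-37107999 the clones held 17.0%, 12.6%, 22.9%, 21.2%, 24.8% and 19.9%, against 78.7% and 75.5% in the fibroblasts (−57.3 points, adjusted p = 2.16e-09). Here too clones and fibroblasts did not overlap. The tiles starting at 37456000, 37180000 and 37639000 differed by −58.2, −57.8 and −55.8 points. Which of the protocadherin genes lie in these mm9 tiles was not determined, because no mm9 annotation was used here.

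The single tile called higher in the clones stood apart from its surroundings. At chr18:37344000-37344999, with 6 positions, methylation was 71.6%, 66.9% and 81.3% in AID-null clones 1 to 3 and 67.6%, 69.5% and 67.0% in wildtype clones 1 to 3, against 14.2% and 16.7% in the fibroblasts (55.2 points, adjusted p = 2.74e-08). The bulk cultures lay between, at 40.1% (95% Wilson interval 36.2% to 44.0%) in AID-null and 44.4% (37.7% to 51.4%) in wildtype cells. Wilson intervals and Fisher's tests here cover counting error only. They count a read once per position it covers, so they can understate even that error. At the other extreme, chr18:37803000-37803999, the tile with 44 positions, was unmethylated in all 10 libraries, with levels between 0.01% and 0.40%.

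**Figure D4:**
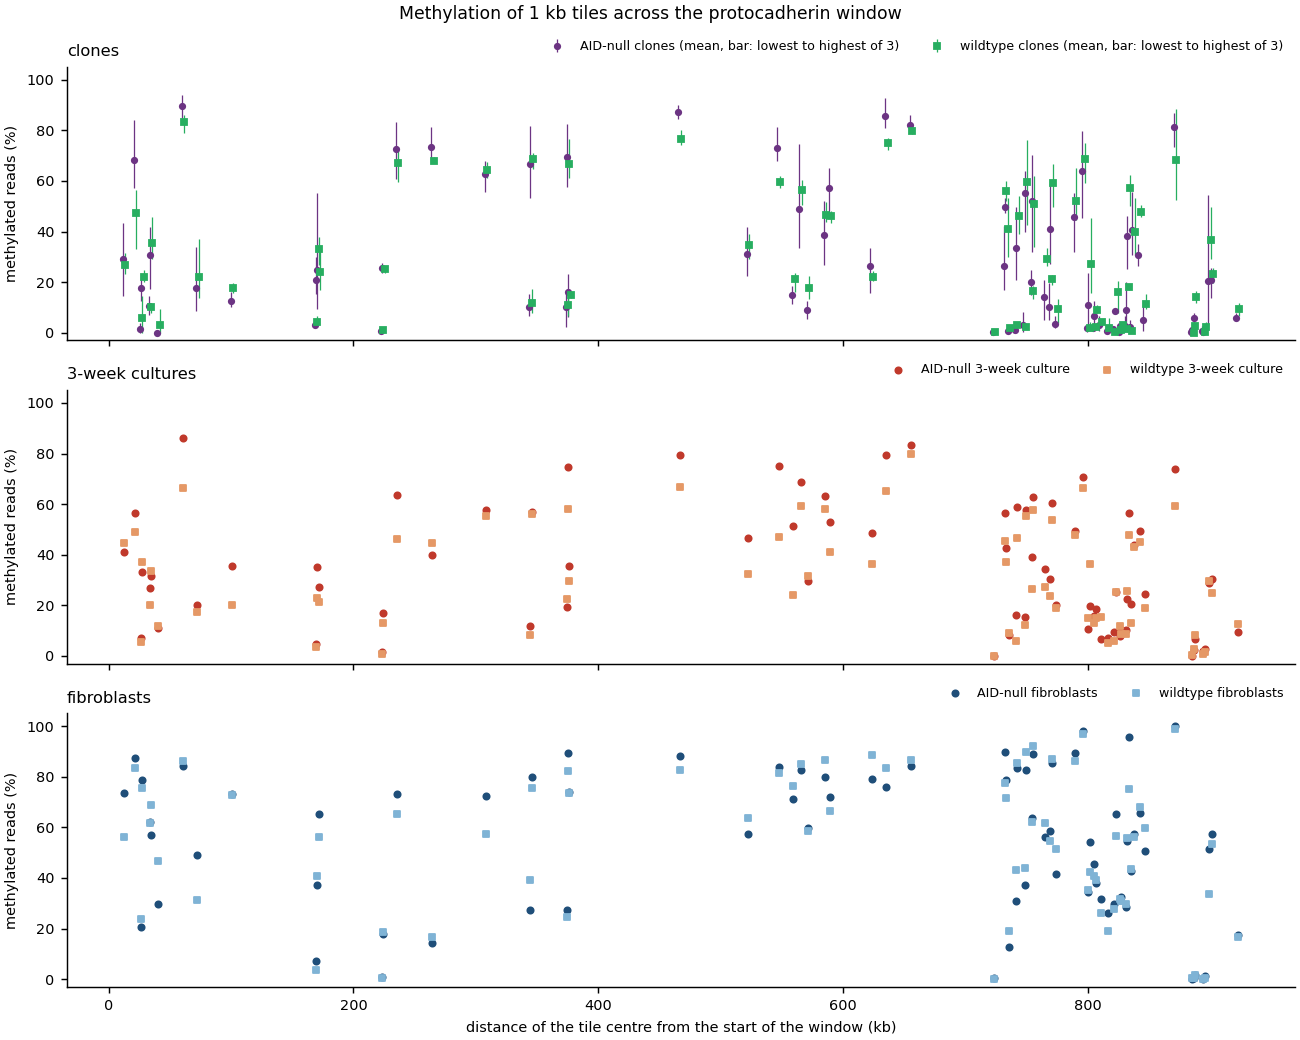
Methylation in percent of the 76 tiles of 1 kb covered in all 10 libraries, by distance of the tile centre from the start of the window in kb; upper panel the clones (mean and range of 3 per genotype), middle panel the 3-week cultures, lower panel the fibroblasts. Most tiles are lower in the clones than in the fibroblasts, by mean in 66 of the 76. At 264.5 kb, the only tile called higher, the clones stand at 66.9% to 81.3% and the fibroblasts at 14.2% and 16.7%.

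Along the window the difference was present nearly throughout. The window was divided into 11 bins of 100 kb, those at its ends cut short (0 to 20 and 920 to 930 kb). The clones' mean was lower than the fibroblast mean in 10 of the 11, each with at least 10 positions. For 9 bins, the higher one included, the exact permutation p adjusted over the 11 bins was 0.0437. Unadjusted, the exact permutation p was 0.0357 in each of these, the smallest possible, and every bin used the same libraries. The largest differences lay in the first 120 kb of the window, at −39.0 and −36.5 points, and between 520 and 720 kb, at −36.0 and −32.7 points. In the bin 20 to 120 kb from the start, with 53 positions, the clones ranged between 26.6% and 35.2% and the fibroblasts stood at 67.2% and 68.1%. In the bin at 720 to 820 kb, which with 236 positions holds the most, the clones ranged between 10.9% and 20.5% against 45.2% and 47.4% in the fibroblasts. The exception was the bin at 220 to 320 kb, with 74 positions, where the clones ranged between 28.1% and 34.1% against 24.1% and 23.9% in AID-null and wildtype fibroblasts. That bin holds the only tile called higher, chr18:37344000-37344999, with 6 positions and a difference of 55.2 points. The bin at 420 to 520 kb stayed methylated in the clones, between 61.5% and 86.2%, against 82.2% and 85.5% in the fibroblasts (adjusted p = 0.214).

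The bulk cultures at 3 weeks also lay below the fibroblasts. By the window mean the wildtype culture, at 25.7%, stood near the wildtype clones' mean of 24.6%. The AID-null culture, at 30.4%, stood further above the AID-null clones' mean of 22.2%. In AID-null cells 26 of 76 tiles were lower than in fibroblasts by Fisher's exact test with the same thresholds, beside 10.4% of 108260 autosomal tiles, and 1 was higher, beside 2.34%. In wildtype cells 39 were lower, beside 31.4%, and 1 was higher, beside 2.26%. With single libraries, Fisher's test speaks of these libraries and not of the conditions. Among tiles at 25% or more in fibroblasts, 41.9% were lower in AID-null and 62.9% in wildtype cells in the window, against 14.6% and 44.1% over all autosomes. The genotypes shared 23 of the lower tiles, 88.5% of the AID-null and 59% of the wildtype ones, and the higher tile was the same in both, chr18:37344000-37344999. In 52 of the 76 tiles the mean of the cultures lay between a lower clone mean and the fibroblast mean, and in 18 it lay below both.

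Some of the tiles that differed most in the cultures were among those named for the clones, and others were not. Both comparisons used the same fibroblast libraries, so their largest differences are not independent. At chr18:37107000-37107999 the AID-null culture stood at 33.2%, against 78.7% in AID-null fibroblasts (−45.5 points, Fisher's exact test, adjusted p = 3.2e-216). In wildtype cells chr18:37180000-37180999 stood at 20.04% in the culture, against 72.9% in the fibroblasts (−52.9 points, adjusted p = 1.2e-81 by the same exact test). The window level differed from the fibroblasts by −15.03 points in AID-null and −20.6 points in wildtype cells, and the autosomal level by −4.55 and −8.98 points.

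Between the genotypes no tile of the window passed the test in the clones. Of 81 tiles tested 0 were higher and 0 lower in AID-null clones, beside 0.0132% and 0.00441% of 113405 autosomal tiles, and limma on log2 ratios also called 0. At an unadjusted p under 0.05 the quasi-binomial model had 14 of the 81 (17.3%), beside 15.8% of all tiles, and limma 7 (8.64%), beside 13% of all tiles. The window level averaged 22.2% ± 4.49 in AID-null and 24.6% ± 1.15 in wildtype clones (SD, n = 3 each), a difference of −2.41 points (exact permutation test, p = 0.5, with 0.1 the smallest possible). Relative to the autosomal level of each library it averaged −5.06 ± 1.28 points in AID-null and −1.27 points in wildtype clones, a difference of −3.79 points with no overlap between the groups (p = 0.1, exact permutation test, the smallest possible). For the gap between dense protocadherin tiles and other dense tiles the groups overlapped. That gap differed by −1.85 points between AID-null and wildtype clones (p = 0.3, exact permutation test). In 8 tiles all AID-null clones lay below all wildtype clones, beside 6.12% of autosomal tiles, and in 5 they lay above, beside 15%.

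The genotype comparison depended on single AID-null clones. AID-null clone 3 had the highest window level of the 6 clones, 26.9%, and AID-null clone 2 the lowest, 17.999%. The AID-null minus wildtype difference was −0.32 points without clone 2 and −4.79 points without clone 3. Without clone 3, 2 of 81 tiles were lower in AID-null clones, beside 1.64% of autosomal tiles (1858, against 5 with all clones), so the window's count was near that share. These were chr18:37850000-37850999 (−26.3 points, adjusted p = 0.015 by the quasi-binomial model moderated with limma) and chr18:37979000-37979999 (−33.1 points, adjusted p = 0.0338 by the same limma-moderated model). With all clones included chr18:37979000-37979999 read 2.83%, 4.44% and 54.3% in AID-null clones 1 to 3 and 31.2%, 29.2% and 49.7% in wildtype clones 1 to 3. The AID-null clones were spread over a wider range there than the wildtype clones. The median SD between clones over the 76 tiles was 5.40 points in AID-null and 3.11 points in wildtype clones, beside 6.56 and 4.38 points over all autosomal tiles.

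In the fibroblasts the genotypes were close at the locus. The window stood at 45.5% in AID-null and 46.2% in wildtype fibroblasts, and 0 of 76 tiles were higher and 0 lower, beside 0.367% and 0.596% of autosomal tiles, although 38 (50%) had an unadjusted p under 0.05 by Fisher's exact test, beside 50.7% of autosomal tiles. In the 3-week cultures the window stood at 30.4% in AID-null and 25.7% in wildtype cells. Here 2 tiles were higher in the AID-null culture, beside 2.25% of autosomal tiles, and 0 were lower, beside 0.0573%. At chr18:37627000-37627999 the cultures read 75.3% (95% Wilson interval 69.99% to 79.9%) in AID-null and 47.0% (38.1% to 56.0%) in wildtype cells, and at chr18:37639000-37639999 they read 51.2% (47.5% to 54.8%) and 24.1% (20.1% to 28.7%). The median difference over the 76 tiles was 3.45 points, beside 6.34 points over all autosomal tiles, and 57 of the 76 tiles were higher in the AID-null culture, a share of 75% beside 77% of all tiles.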

How the data were processed

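RRBS of 10 libraries and RNA sequencing of 4 were used, grouped by title. The submitters' processing notes name TopHat, Cufflinks, Bismark and methylKit and the build mm9, without versions or an annotation. Each deposited RRBS file gives, per the file headers, a read count (coverage) and the percent of methylated and of converted reads per cytosine. The deposited RNA files give FPKM, normalised by the authors. Coverage times percent gave methylated reads. Positions needed a coverage of 10, and those above the 99.9th percentile of a library were left out. Tiles of 1000 bp needed 3 such positions in each library, and p-values were adjusted over all autosomal tiles (limma 3.58.1, R 4.3.3, statsmodels 0.14.6), with the model tested on simulated data. Members and gene lists were chosen with earlier results of these data known. Any member reaching 1 FPKM could be named, of other lists the 4 largest differences per comparison plus Ctcf, Smchd1 and Dnmt3b, and of tiles the 5 largest called. Of 59 symbols 58 matched the GRCm38.p6 gene table, used for names and order only, and Pcdha4-g matched by synonym. Of 25 locus regulators 23 were found. Levels relative to the autosomes, dense tiles and counts among tiles at 25% or more were added after seeing the data. The RNA level of the gene targeted in the AID-null cells is not reported here.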

Additional observations from a re-analysis of the deposited data

Results flagged for a closer look

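For 6 genes the difference between AID-null and wildtype cells had opposite signs in the 3-week cultures and in the fibroblasts, with 1 library each, and the change between them was not tested. The differences of log2(FPKM + 1) were −2.03 in the cultures and 0.52 in the fibroblasts for Pcdha4, 1.16 and −0.24 for Pcdhb5, and 1.01 and −0.05 for Pcdhb7. For Pcdhb9 they were 1.13 and −0.23, for Pcdhb14 1.06 and −0.34, and for Pcdhgc4 1.06 and −0.03. The fibroblast differences of Pcdhb7 and Pcdhgc4 are close to 0. Pcdha4 reached 1 FPKM only in the wildtype culture and Pcdhgc4 only in the AID-null culture. The signs of these culture differences were therefore fixed by the filter. No group held 4 or more libraries, so no search for outlying samples was made.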

How the results depend on the processing

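Of the alternatives tried for results that answer a comparison, 125 values kept their direction and their side of the threshold or stayed within 1.5 times, 9 moved further and 2 no longer passed. Without AID-null clone 3, window tiles called lower in AID-null clones numbered 2, beside 1858 autosomal tiles against 5 with all clones, and leaving out any clone gave 0 to 2. The window level difference between genotypes ranged between −4.79 and −0.32 points when a clone was left out. In tiles of 500 bp, 1 tile was lower in AID-null fibroblasts. The window difference between clones and fibroblasts was −22.9 points without the AID-null and −22.1 points without the wildtype fibroblast library, where the smallest possible exact permutation p is 0.143, and ranged between −23.2 and −21.4 points when any library was left out. In the 3-week cultures 13 members were higher and 4 lower with a pseudocount of 0.1, 12 were higher after upper-quartile scaling, and 12 higher and 1 lower after median-of-ratios scaling, with a median of 0.18 when no filter was used. The fibroblast median was −0.0803 after upper-quartile scaling. With the clone number as a replicate block 0 window tiles were called higher or lower, while over all autosomes the calls went to 474 higher and 289 lower, against 15 and 5 without it; same-numbered clones correlated at 0.02, −0.02 and 0.05, so they share only a number. Causes were not tested. The 42 to 10659 read counts per tile and library, summed over positions, limit single tiles, and 1 RNA library per group gives no error.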

Other observations

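Other genes beside the arrays were measured in the same libraries. Slc25a2, between the arrays by the gene order used, was listed at 0 in the AID-null and 1.39 FPKM in the wildtype 3-week culture, and at 0 in both fibroblast libraries. Zmat2, before the arrays, stood at 176 and 234 FPKM in the AID-null and wildtype cultures and at 178 and 181 FPKM in the fibroblasts, and Hdac3, after them, at 205 and 181 FPKM and at 225 and 222 FPKM. The cadherin Cdh13 differed between the cultures, at 239 FPKM in AID-null and 37.1 FPKM in wildtype cells, and stood at 89.7 and 96.1 FPKM in the fibroblasts.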
